A study of Arabidopsis thaliana with 41 samples.

Results

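The transcripts described here are the antisense transcripts of developing Arabidopsis thaliana embryos, that is, transcripts assembled from the reads on the strand opposite a reference gene. They were taken as every transcript that the assembly marks with class code x, each transcript apart, and 350 of the 53988 assembled transcripts met this rule. They lie on 278 named sense genes and at 288 loci of the assembly. A single antisense transcript was listed for 224 of these genes, 2 for 43, 3 for 6, 4 for 4 and 6 for 1. The groups are embryos of the val1 mutant, whose allele the labels do not name, and wild-type (WT) embryos, each at 7, 8, 10, 12, 13, 15 and 17 days of age. Each group has 3 libraries except WT at day 17, which has 2, so there are 41 libraries. Embryos of many seeds from staged siliques were dissected in the cold and washed to take off endosperm, and paired-end RNA sequencing was done on their RNA. The design text speaks of biological and technical replicates without saying which library is which, so the p-values measure the spread between these libraries, part of which may be technical.

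Antisense RNA is transcribed across a gene from the other strand, and in plants such RNAs can silence, tune or accompany the gene that they overlap. The best studied cases in Arabidopsis are COOLAIR at the flowering repressor FLC and the antisense RNA of DOG1, a gene of seed dormancy. VAL1 is a B3-domain protein that binds the RY element, whose core letters are CATGCA, and helps Polycomb proteins to repress seed maturation genes. No antisense transcript was listed on FLC, CBF1, MAF4, CDF5, SRO5, P5CDH or VAL1, whose antisense RNAs or antisense partners are known from other work or which the study mutated, while DOG1 had 2. VAL1 itself averaged 1.44 to 6.45 scaled FPKM over the 7 ages in val1 embryos and 6.36 to 19.9 in WT embryos, a log2 difference of -1.71 (limma, adjusted p = 3.50e-20).

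The deposited files give no coordinates for the assembled transcripts, so their own sequences are not shown. The sense genes could be placed: 271 of the 278 matched a locus of the RefSeq annotation of TAIR10.1, and 256 of these are protein coding. They lie on chromosomes 1 to 5 in counts of 80, 40, 41, 39 and 71. Of the 343 antisense transcripts on matched genes, 107 (31.2%) lie across a gene that has another gene annotated on the opposite strand, a protein-coding one for 72. Counted by gene, 71 of 256 protein-coding sense genes (27.7%) have such a partner, against 6758 of all 27561 protein-coding genes (24.5%).

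The 250 bases before the annotated start of each sense gene were searched for CATGCA on both strands, where the reverse complement is TGCATG and the 2 can overlap. It was present before 37 of the 256 protein-coding sense genes (14.5%) and before 2314 of all 27443 protein-coding genes searched (8.43%), as a description of letters and not of binding. Of 30 sense genes of the antisense transcripts named below that had such a window, 3 held the letters. The windows of AT2G05580, GEA6, AT4G36600, AIG2L and SMP1, whose antisense transcripts were among those that rose most with age, held 0 matches. The 3 windows that hold the letters are shown. They belong to CRA1 (AT5G44120, a cruciferin storage protein, chr5:17758337-17758586, minus strand), CRU3 (AT4G28520, another cruciferin, chr4:14087306-14087555, plus strand) and LCR67 (AT1G75830, a defensin-like protein, chr1:28472107-28472356, plus strand). The window of AT1G64795 (chr1:24082329-24082578, plus strand) is added because this short gene, at chr1:24082579-24082848, lies inside the span of ILA on the other strand, where the antisense transcript with the largest genotype difference was listed. All are printed 5′ to 3′ on the strand of the gene named, from RefSeq on TAIR10.1, with CATGCA and TGCATG in capitals.
CRA1: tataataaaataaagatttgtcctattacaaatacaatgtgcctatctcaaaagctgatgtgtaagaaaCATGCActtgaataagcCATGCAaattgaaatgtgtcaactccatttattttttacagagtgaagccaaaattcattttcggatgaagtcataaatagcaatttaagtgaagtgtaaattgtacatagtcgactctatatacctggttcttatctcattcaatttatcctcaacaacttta
CRU3: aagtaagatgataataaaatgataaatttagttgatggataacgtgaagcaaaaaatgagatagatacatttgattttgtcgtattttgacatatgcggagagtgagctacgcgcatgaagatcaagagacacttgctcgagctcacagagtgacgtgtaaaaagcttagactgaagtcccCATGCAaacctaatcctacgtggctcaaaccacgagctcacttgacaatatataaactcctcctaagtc
LCR67: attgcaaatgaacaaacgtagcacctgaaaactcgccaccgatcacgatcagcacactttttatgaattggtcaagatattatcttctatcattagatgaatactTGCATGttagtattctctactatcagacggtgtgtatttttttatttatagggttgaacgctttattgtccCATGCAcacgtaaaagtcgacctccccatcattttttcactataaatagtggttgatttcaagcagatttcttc
AT1G64795: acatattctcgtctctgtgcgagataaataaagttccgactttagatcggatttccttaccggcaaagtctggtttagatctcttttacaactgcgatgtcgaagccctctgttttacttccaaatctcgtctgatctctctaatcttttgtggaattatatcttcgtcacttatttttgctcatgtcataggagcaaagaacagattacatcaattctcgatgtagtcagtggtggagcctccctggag
CRA1 and LCR67 hold 2 matches each and CRU3 holds 1, while the AT1G64795 window holds 0.

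The values are FPKM, fragment counts divided by transcript length and by the mapped fragments of the library, and are given here after scaling each library by its trimmed mean of M-values factor ("scaled FPKM"). By the spacing of the lowest values the libraries hold an estimated 8321306 to 51738641 reads, with a median of 29731894. No label states that the libraries keep strand, so reads of a gene and of its antisense partner cannot be told apart, and each antisense value below carries that limit. In these bulk samples fewer cells of a type and less RNA per cell cannot be told apart either.

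The antisense transcripts were shorter than reference-matching ones and mostly lower than their sense genes. Their length ran from 200 to 6954 bases with a median of 644, against 1365 for transcripts that match a reference model. The median of their mean FPKM was 0.958, against 0.585 for reference-matching transcripts, and 174 averaged 1 FPKM or more and 26 averaged 10 or more. In a library 189 to 315 of the 350 were above 0, with a median of 300, and 108 were above 0 in every library. The level per length was a median of 8.90% of the sense gene's summed level over 310 pairs, with 67 pairs under 1%, 199 between 1% and 100%, and 44 over 100%.

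Of all reads, class x transcripts took 0.332 to 7.24% in val1 libraries (median 0.455%, n = 21) and 0.295 to 3.65% in WT libraries (median 0.516%, n = 20). Most of these reads fell on a pair of transcripts of 6952 and 6954 bases across AT3G41768, a gene for 18S ribosomal RNA, each with a mean of 601 FPKM. Without that gene the share was 0.0539 to 0.165% in val1 libraries (median 0.0867%) and 0.0403 to 0.180% in WT libraries (median 0.0971%). The shares of the genotypes overlap either way. In 6 libraries class x took over 1% of reads: val1 day 7 replicate 1 (7.24%), the unnumbered val1 libraries of day 8 (1.82%) and day 12 (1.98%), WT day 7 replicate 1 (3.62%) and the unnumbered WT libraries of day 8 (3.65%) and day 12 (3.16%). These libraries stand apart in both genotypes, and the counts that they change are given below with and without them.

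**Figure D1:**
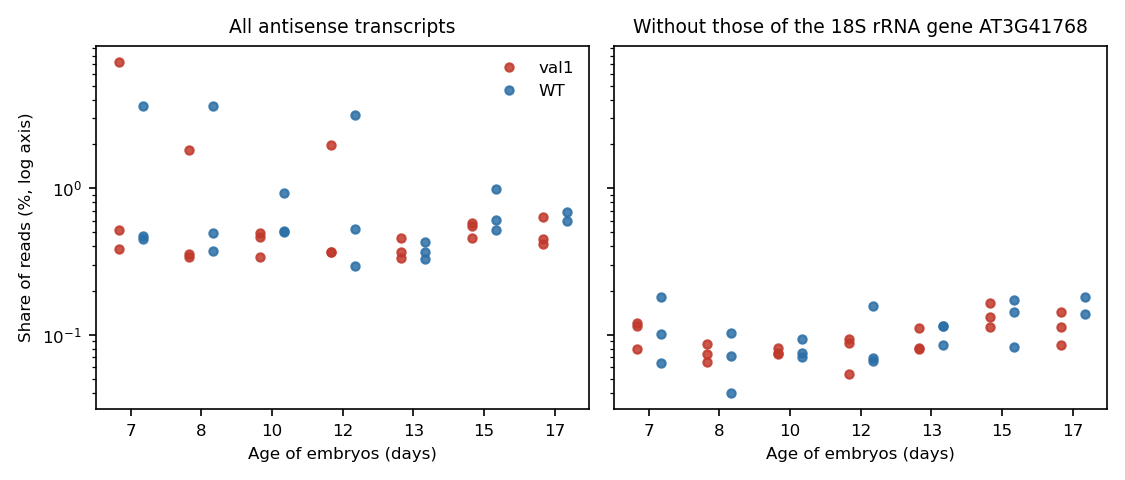
Share of reads in antisense (class x) transcripts, in percent on a log axis, by embryo age in days (ages evenly spaced), for val1 and WT libraries, with the 18S rRNA gene AT3G41768 counted on the left and left out on the right. Each point is a library, and the shares run from 0.295 to 7.24% with the gene and from 0.0403 to 0.180% without it.

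Apart from the 18S locus, the highest mean FPKM values belonged to antisense transcripts of 2 ribosomal protein genes, a plastid transfer RNA gene and AT2G05580. AT3G08520.N2 (88.9 FPKM) and AT2G40205.N2 (46.6 FPKM) lie across a pair of near-identical genes for ribosomal protein L41, between which reads may be shared, so both levels are uncertain. ATCG00400.N2 (61.3 FPKM) lies across a plastid transfer RNA gene, and the transcripts N10, N11 and N12 of AT2G05580, a glycine-rich protein gene, averaged 46.3, 40.3 and 33.4 FPKM. None of the 7 antisense transcripts of the 18S and L41 genes and of AT2G05580 passed the test between genotypes averaged over age (adjusted p 0.305 to 0.75, limma).

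Age changed most antisense transcripts in both genotypes, as it changed most of all transcripts. Tests used limma on log2(scaled FPKM + 0.5) with a Benjamini-Hochberg adjusted p under 0.05 over the 31161 transcripts that reached 1 FPKM in at least 2 libraries, a scale that understates changes of low transcripts. Of the 350 antisense transcripts 310 met that minimum and 40 did not. Between day 12 and day 7, 200 of 310 (64.5%) changed in val1 embryos (165 higher and 35 lower at day 12). This was below the 70.2% of all transcripts (32.2% higher and 38% lower). In WT embryos 197 (63.5%) changed (161 higher and 36 lower). In WT the background was 71.1% of all transcripts, with 32.3% higher and 38.8% lower. Thus 82.5% of the changed antisense transcripts in val1 and 81.7% in WT were higher at day 12, against 45.9% and 45.4% of all changed transcripts. Antisense transcripts were assembled from these same reads, while 41934 of the 53988 assembled transcripts match a reference model. In a library 189 to 259 antisense transcripts were above 0 at day 7 and 303 to 315 at day 12. They may thus enter through the ages where they are high, so this contrast with all transcripts is a description only. Without any scaling between libraries the counts were 120 higher and 62 lower in val1 and 120 higher and 65 lower in WT (65.9% and 64.9% higher), where that choice moved the median of all transcripts by -0.85 and -0.92 on the log2 scale and left 17.2% and 15.8% of all changed transcripts higher.

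From day 12 to day 17 the antisense transcripts split nearly evenly. In val1 embryos 121 were higher and 104 lower at day 17, so 72.6% changed (background 73.1% of all transcripts, 37.6% higher and 35.5% lower). In WT embryos 108 were higher and 112 lower, so 71.0% changed (background 71.9%, 38.2% higher and 33.7% lower). The genotypes are tested on separate libraries here, and of the transcripts higher at day 12 than at day 7 the same 149 were found in both, 90.3% of the val1 list and 92.5% of the WT list. The lists of those lower at day 12 shared 30 (85.7% and 83.3%), those higher at day 17 than at day 12 shared 101 (83.5% and 93.5%), and those lower at day 17 shared 86 (82.7% and 76.8%). The overlap over all transcripts was not counted, so this sharing is not shown to be particular to antisense transcripts. By mean level, 34 antisense transcripts in val1 (11.0%) and 30 in WT (9.68%) were highest at day 7, against 27.1% and 26.8% of all tested transcripts. At day 15 the figures were 69 in val1 (22.3%) and 51 in WT (16.5%), against 8.98% and 9.18% of all, and at day 17 they were 88 (28.4%) and 84 (27.1%), against 29.6% in both.

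The antisense transcripts with the largest rise between day 7 and day 12 lie across AT2G05580 and a cruciferin storage protein gene. AT2G05580.N10 had 47.5, 46.1 and 19.1 scaled FPKM at day 12 and 0.0131, 0 and 0 at day 7 in val1 embryos, against 40.2, 85.4 and 28.4 at day 12 and 0, 0.0319 and 0 at day 7 in WT embryos. The ages do not overlap in either genotype, and the log2 difference in WT was 6.51 (SE 0.34, adjusted p = 2.09e-17), beside 12.61 for the sense gene. CRA1, a 12S cruciferin gene whose CATGCA window is printed above, had AT5G44120.N6 at 70.9, 49.6 and 48.6 scaled FPKM at day 12 and 0.165, 0.190 and 0.0862 at day 7 in val1, against 51.4, 28.4 and 57.4 at day 12 and 0.130, 0 and 0.0283 at day 7 in WT. Its log2 rise in WT was 6.33 (adjusted p = 2.17e-17), beside 10.44 for the sense gene, and N7 of the same gene rose by 5.81. CRU3, the other cruciferin gene shown, had AT4G28520.N9 listed at 0 at day 7 in all 6 libraries, and at 16.3 to 34.5 scaled FPKM in val1 and 15.9 to 30.7 in WT at day 12. Its log2 value of 5.56 in WT was past the threshold (adjusted p = 7.63e-15) but depends on the pseudocount.

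The largest falls between day 7 and day 12 were across 2 plastid transfer RNA genes, AT3G28660, AT2G34330 and a ribosomal protein gene. ATCG00400.N2 fell to 5.41, 14.2 and 9.02 scaled FPKM at day 12 in WT, against 340, 62.1 and 138 at day 7 (log2 difference -3.93, adjusted p = 1.75e-08). The other plastid transfer RNA gene, ATCG00450, had its N2 transcript lower by a log2 difference of -3.02. AT2G40205.N2 of the ribosomal protein L41 gene fell by 2.18 on the log2 scale, close to the fall of its sense gene by 2.24. AT3G28660.N2 and AT2G34330.N2 were lower by log2 differences of -2.87 and -2.78.

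Between day 12 and day 17 the antisense transcripts that rose most lie across GEA6, LCR67, AT4G36600, AIG2L and SMP1. On GEA6 (also called EM6), a late embryogenesis abundant (LEA) protein gene, AT2G40170.N2 reached 31.7, 77.5 and 41.7 scaled FPKM in val1 and 85.4 and 77.7 in WT at day 17. At day 12 it was listed at 0, 0 and 0.0481 in val1 and at 0, 0 and 0.172 in WT. On LCR67, AT1G75830.N2 had 30.3, 81.0 and 36.9 scaled FPKM in val1 and 82.8 and 62.7 in WT at day 17, after 0.102, 0 and 0 in val1 and 0 in each WT library at day 12. The sense genes rose as well. The LCR67 gene had 12075, 27492 and 14161 scaled FPKM in val1 and 39831 and 25211 in WT at day 17. At day 12 it had 51.3, 10.2 and 3.86 in val1 and 0, 0 and 23.9 in WT. The GEA6 gene in val1 had 7930, 14568 and 10693 at day 17 and 2.52, 6.12 and 3.93 at day 12. AT4G36600.N3, across another LEA gene, AT5G39720.N2, across AIG2L, and AT3G12960.N2, across the seed maturation gene SMP1, rose in WT by 6.83, 6.27 and 5.77 on the log2 scale. These 5 transcripts did not pass the genotype test averaged over age (adjusted p 0.19 to 0.987).

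The largest falls to day 17 included AAE12 and BZO1, neighbouring genes for acyl-activating enzymes, of which BZO1 serves the making of benzoylated glucosinolates in seeds. AT1G65890.N3 of AAE12 was at 0.494, 0 and 0.160 scaled FPKM at day 17 and 40.9, 43.1 and 21.4 at day 12 in val1, and at 0 and 0.195 at day 17 and 27.8, 72.8 and 27.8 at day 12 in WT. At day 15, between them, it had 15.8, 2.53 and 21.7 in val1 and 0.512, 0.487 and 2.39 in WT, 2 groups that do not overlap (log2 difference 2.86, past the threshold). AT1G65880.N2 of BZO1 had 3.73, 0.553 and 4.57 at day 15 in val1, against 0.107, 0 and 0.485 in WT. The 2 genes are similar in sequence, so reads may be shared between them. The AAE12 sense gene itself had only 0.0716 to 0.148 scaled FPKM in val1 and 0.0934 to 0.176 in WT at day 12. The BZO1 sense gene had 90.4, 17.0 and 92.8 at day 15 in val1, against 7.64, 2.16 and 17.4 in WT. Whether the values of AT1G65890.N3 hold reads of BZO1 was not tested. ATCG00280.N2, across the photosystem II gene psbC, AT1G53690.N2, across a gene for a small RNA polymerase subunit, and AT5G01075.N2 were lower at day 17 in WT by log2 differences of -4.68, -4.39 and -4.19.

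Averaged over the 7 ages, 75 of the 310 antisense transcripts differed between val1 and WT (24.2%), 39 higher and 36 lower in val1. This was close to the 25.3% of all transcripts tested (14.1% higher and 11.3% lower). With voom on the estimated reads 52 differed (16.8%, below the 23.8% of all transcripts), and without scaling 55 (17.7%, against 18.5%). Of the 75, 2 differed by a log2 value of 1 or more in size and 55 by less than 0.5. The 2 large ones lie on ILA and KCR2. Across the 39 genes with at least 2 tested antisense transcripts, all called transcripts of a gene had the same direction in each of the 12 genes that had 2 or more called. Transcripts of the same gene may share reads, so they are not independent of each other.

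The largest difference of all antisense transcripts was at ILA (AT1G64790, chr1:24064822-24083428, minus strand), which encodes a large HEAT-repeat protein related to the translation regulator GCN1. The transcript AT1G64790.N3 is 817 bases long, while the annotated gene spans 18607. In val1 embryos it was listed at 0 in all 3 libraries of day 7, at 0.0263, 0 and 0.00484 scaled FPKM at day 8 and at 0.419, 0.292 and 0.193 at day 10. In WT embryos the values were 4.24, 3.58 and 3.26 at day 7, 7.52, 6.13 and 12.2 at day 8 and 25.8, 28.7 and 21.3 at day 10. At day 17 it had 4.06, 4.49 and 1.80 scaled FPKM in val1, against 302 and 454 in WT. No val1 library reached any WT library of the same age, although the level rose with age in both genotypes.

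The log2 difference of AT1G64790.N3 averaged over age was -4.97 (SE 0.11, adjusted p = 1.14e-27), and it was -5.01 at day 10, -5.18 at day 12, -4.93 at day 13, -5.86 at day 15 and -6.63 at day 17. It was the only antisense transcript past the threshold at all 7 ages. At days 7 and 8 the fitted values of -3.06 and -4.10 depend on the pseudocount, since val1 was at or near 0. The sense gene's sum also fell in val1, by 3.15 on the log2 scale, with 11.3 ± 3.01 scaled FPKM at day 17 in val1 (SD, n = 3) and 533 ± 113 in WT (SD, n = 2). That sum takes in AT1G64790.N6, a form sharing a splice junction with the gene, which averaged 0 to 5.48 scaled FPKM in val1 groups and 4.99 to 513 in WT groups. The reference form AT1G64790.1 stayed at 0.301 to 0.667 scaled FPKM in val1 group means and 0.293 to 0.662 in WT group means. The annotated gene AT1G64795 is not a row of the deposited table, and whether the antisense transcript covers it was not tested.

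DOG1 (AT5G45830, chr5:18589418-18591506, minus strand), a regulator of seed dormancy, had antisense transcripts of 1239 bases (N2) and 2064 bases (N3). AT5G45830.N2 was near 0 at days 7 and 8 and then rose in both genotypes. In val1 it had 10.2, 11.4 and 8.14 scaled FPKM at day 10, 14.4, 19.3 and 13.6 at day 12, 23.4, 30.2 and 26.2 at day 13, 67.4, 51.4 and 59.7 at day 15 and 48.3, 43.1 and 57.8 at day 17. In WT it had 7.75, 11.6 and 9.92 at day 10, 19.5, 23.5 and 24.7 at day 12, 29.8, 48.1 and 35.5 at day 13, 59.3, 78.3 and 78.6 at day 15 and 19.0 and 27.8 at day 17. The genotypes overlap at day 10, all val1 libraries are below WT at day 12, and all are above WT at day 17.

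Only the day 17 difference of AT5G45830.N2 passed the threshold (log2 1.09, adjusted p = 0.000980), and its average over age was 0.01 (adjusted p = 0.954). AT5G45830.N3 was lower in val1 at day 13, with 2.30, 3.27 and 3.11 scaled FPKM against 4.54, 5.43 and 4.55 in WT (log2 difference -0.66, adjusted p = 0.00277). At day 17 it was higher in val1, with 11.4, 10.2 and 15.7 against 5.33 and 7.32 in WT (log2 difference 0.92, adjusted p = 0.000267). The genotype difference changed with age for both transcripts (interaction, adjusted p = 0.00426 for N2 and 0.000628 for N3), a call lost with voom (0.190 and 0.834) and without scaling (0.338 and 0.139). Without scaling the single-age differences also missed the threshold, at 0.72 for N2 (adjusted p = 0.108) and 0.56 for N3 (0.0788) at day 17 and -0.54 for N3 (0.0636) at day 13. The sense gene moved the same way at day 17, at 414 ± 90.3 scaled FPKM in val1 (SD, n = 3) and 187 ± 30.1 in WT (SD, n = 2), and its average over age did not pass the threshold (log2 0.11, adjusted p = 0.567).

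**Figure D2:**
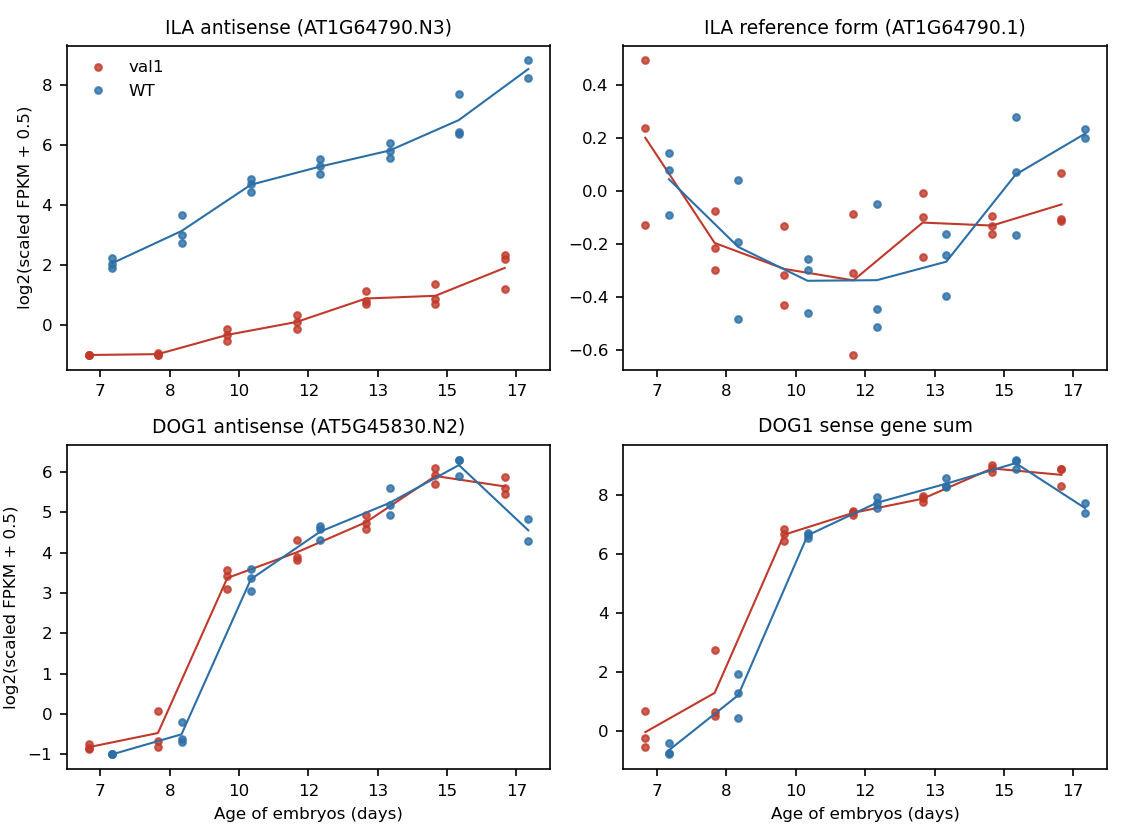
The antisense transcript AT1G64790.N3 beside the reference form of ILA (top) and the antisense transcript AT5G45830.N2 beside the DOG1 sense gene sum (bottom), as log2(scaled FPKM + 0.5) by embryo age in days (ages evenly spaced), with points for libraries and lines through the means of the log2 values in val1 and WT. The ILA antisense transcript lies lower in val1 at every age (4.06, 4.49 and 1.80 against 302 and 454 scaled FPKM at day 17), while the DOG1 panels part at day 17, with 43.1 to 57.8 in val1 above 19.0 and 27.8 in WT for the antisense transcript.

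Among the antisense transcripts higher in val1, AT1G24470.N5 differed most. It lies across KCR2 (chr1:8673914-8676408, plus strand), which encodes a relative of the ketoacyl reductase of very-long-chain fatty acid elongation. It had 0.515, 0.688 and 0.285 scaled FPKM in val1 and 0.724, 0.546 and 0.452 in WT at day 7, where the groups overlap. At day 13 it had 3.42, 3.76 and 3.34 in val1 against 0.444, 0.401 and 0.935 in WT, and at day 17 1.14, 1.17 and 1.39 in val1 against 0.0372 and 0.146 in WT. The log2 difference averaged 1.09 (SE 0.08, adjusted p = 1.84e-12), passed the threshold from day 10 on (1.09 to 1.91) and was -0.12 at day 7 and 0.09 at day 8. The sense gene changed by 2.02, with 36.9 ± 5.48 scaled FPKM in val1 and 4.49 ± 1.74 in WT at day 13 (SD, n = 3 each). Of the 2 genes annotated across KCR2, AT1G24480 averaged 0.0447 scaled FPKM and reached 0.401 at most, and the other has no row.

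Antisense transcripts across TPS-CIN and CYP707A2 also rose in val1. AT3G25830.N2, across TPS-CIN, a monoterpene synthase that makes cineole, had 16.0, 19.0 and 29.5 scaled FPKM at day 15 in val1, against 5.74, 4.90 and 7.21 in WT, and 7.59, 3.84 and 8.23 at day 17 in val1, against 0.107 and 0.368 in WT. Its log2 difference averaged 0.80 (SE 0.09, adjusted p = 3.78e-08), and its sense gene changed by 1.64. A near-identical neighbour, AT3G25820, can share its reads, so these values are uncertain. AT2G29090.N3, across CYP707A2, which breaks down abscisic acid, had 4.48, 3.55 and 3.44 scaled FPKM at day 12 in val1, against 1.13, 1.23 and 1.00 in WT (average log2 difference 0.65, adjusted p = 4.59e-07, sense gene 1.21).

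AT5G08460.N2 lies across a gene for a GDSL-type lipase. It had 1.04, 1.28 and 1.14 scaled FPKM at day 12 in val1, against 0.346, 0.384 and 0.310 in WT, groups that do not overlap (average log2 difference 0.77, adjusted p = 1.16e-11, sense gene 1.79). The transcript N3 of the same gene was higher by 0.60. AT2G34700.N2, across a gene for a pollen Ole e 1-type extensin, had 3.80, 5.43 and 4.61 at day 17 in val1, against 0.815 and 0.890 in WT (average log2 difference 0.61, adjusted p = 3.36e-06). AT5G06839.N6, across the bZIP factor gene TGA10, and AT2G05310.N2 were higher by 0.57 and 0.55.

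The 2 plastid transcripts that were higher in val1 differed mainly late. ATCG00400.N2 had 12.0, 8.14 and 14.3 scaled FPKM at day 15 in val1, against 0.727, 2.01 and 2.50 in WT, while its sense gene was listed at 0 in every library from day 10 on, so that the pair cannot be compared there. ATCG00280.N2 had 8.67, 2.06 and 7.83 at day 17 in val1, against 0.101 and 0.432 in WT, beside a sense change of 0.81. Their average log2 differences were 0.91 (adjusted p = 0.000414) and 0.82 (adjusted p = 0.00903).

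After ILA, the antisense transcripts lower in val1 included several on the same genes. Both transcripts of AT5G27037, a transcribed pseudogene with an annotated long noncoding RNA across it, were lower (log2 -0.87 for N2 and -0.82 for N3, adjusted p = 6.64e-13 and 1.00e-13). AT5G27037.N2 had 0.126, 0.311 and 0.0884 scaled FPKM at day 17 in val1, against 1.67 and 1.66 in WT, and at day 15 it had 0.0522, 0.246 and 0.0893 in val1 against 1.04, 2.35 and 2.01 in WT. The groups do not overlap at either age, and the sense row also fell by 0.82 on the log2 scale. AT5G49640.N3 was at 1.66, 2.26 and 0.798 at day 17 in val1 against 5.80 and 4.00 in WT (average -0.60), and AT2G28990.N2, across a receptor-like kinase gene, was at 0, 0.303 and 0.394 at day 10 in val1 against 1.26, 1.03 and 1.70 in WT (average -0.48, adjusted p = 0.00553).

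The transcripts N3 to N6 of EPR1, an extensin-like gene known from endosperm, were all lower in val1 (log2 -0.57 to -0.60). These transcripts may share reads and are not independent of each other. AT2G27380.N6 had 6.20, 6.61 and 4.80 scaled FPKM at day 12 in val1, against 10.5, 28.8 and 13.9 in WT, while the sense gene did not pass the test (log2 -0.43, adjusted p = 0.125). EPR1 is itself 1 of 8 endosperm markers and made up 99.7% of their sum at day 12 in val1 and 99.9% in WT. The sum of the other 7 was 0.0820 to 0.187 scaled FPKM at day 12 in val1 and 0.0956 to 0.182 in WT, and it was highest at day 7 (1.56 to 9.65 in val1 and 1.01 to 4.69 in WT). Of the 3 endosperm markers tested, 0 passed between genotypes, and MEA, FIS2, FWA and PHE1, which mark early endosperm, were at or near 0. The other endosperm markers beside EPR1 were not all near 0: ALE1 reached 5.74, ZOU 3.76 and AGL62 0.522 scaled FPKM in their highest library. The sum over 10 seed coat markers was higher in val1 with no overlap at day 13 (8.99 to 12.6 in val1 and 4.00 to 7.35 in WT), day 15 (2.67 to 4.33 and 1.83 to 2.62) and day 17 (2.43 to 3.06 and 1.24 to 1.61). Of 6 seed coat markers tested, MUM4 and MUM2, genes of mucilage formation, were higher in val1 averaged over age (log2 0.58 and 0.21) and 0 were lower. MUM4 made up most of the sum at these ages, and the sum of the other 9 was lower in val1 at day 15 (0.132 to 0.154 in val1 and 0.311 to 0.337 in WT). The part of these markers in the genotype differences of antisense transcripts at days 13, 15 and 17 was not tested. The sum over 6 embryo markers ran from 536 to 333088 in val1 and from 391.9 to 368359 in WT, lowest at day 7 in both. At day 17 it did not overlap, with 178434 to 333088 in val1 and 121739 to 138312 in WT. CRU3 and OLEO1 made up nearly all of this sum, with means of 120609 and 31177 scaled FPKM over all libraries. LEC1, LEC2, FUS3 and ABI3 averaged 1.10 to 64.2.

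**Figure D3:**
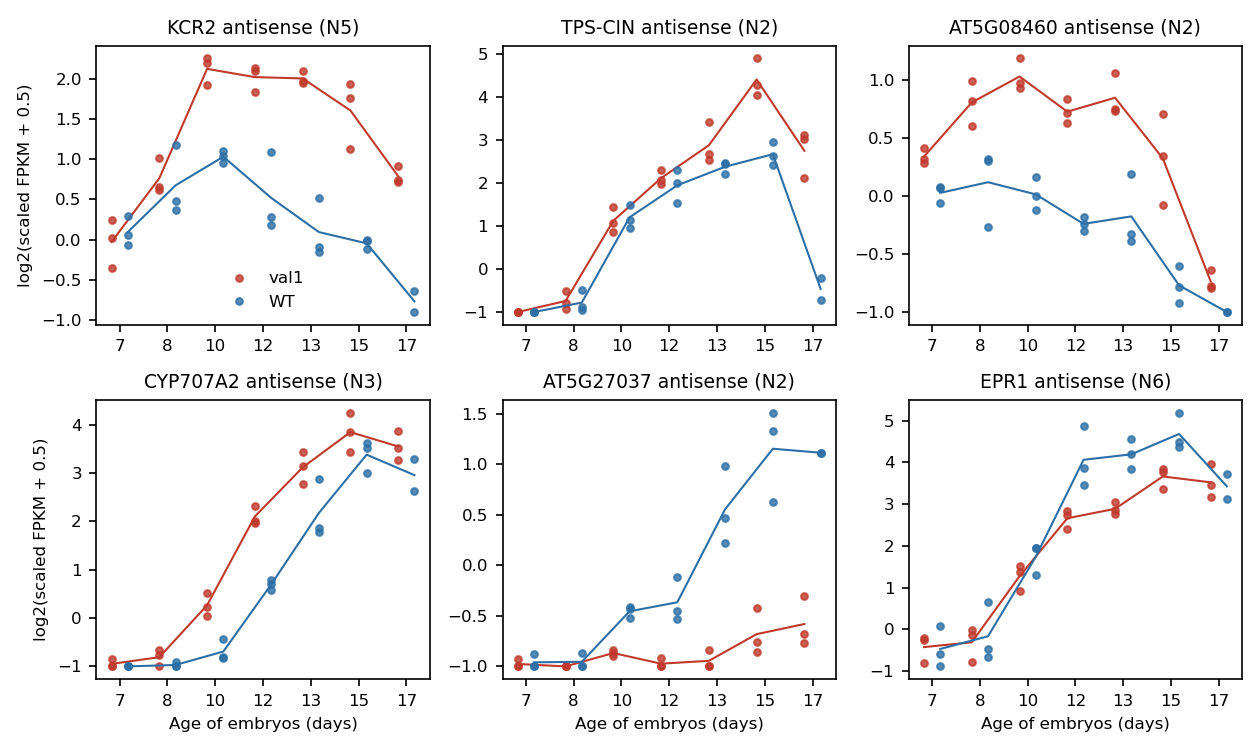
Antisense transcripts of KCR2, TPS-CIN, AT5G08460, CYP707A2, AT5G27037 and EPR1 as log2(scaled FPKM + 0.5) by embryo age in days (ages evenly spaced), with points for libraries and lines through the means of the log2 values in val1 and WT. The KCR2 transcript is higher in val1 from day 10 on (3.42, 3.76 and 3.34 against 0.444, 0.401 and 0.935 scaled FPKM at day 13), and the AT5G27037 transcript is lower in val1 at day 17 (0.126, 0.311 and 0.0884 against 1.67 and 1.66).

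By age, the number of antisense transcripts that differed between genotypes was small at first and larger later. At day 7, 3 of 310 differed (background 2.28% of all transcripts), at day 8 3 (2.46%), at day 10 10 (3.91%), at day 12 25 (5.81%), at day 13 40 (13.5%), at day 15 43 (13.2%) and at day 17 54 (12.0%). The members' shares were 8.06% at day 12, 12.9% at day 13, 13.9% at day 15 and 17.4% at day 17. With voom on the estimated reads the day 17 share was 11.0%, against 10.0% of all transcripts. Without scaling it was 10.3%, against 10.5%, so its place above the background was not stable. The called antisense transcripts lay on 16 sense genes at day 12, 29 at day 13, 36 at day 15 and 46 at day 17. Most were lower in val1 at day 12 (6 higher and 19 lower) and day 13 (8 higher and 32 lower), and most were higher at day 15 (29 higher and 14 lower) and day 17 (39 higher and 15 lower). Among all transcripts 1.26% were higher and 1.02% lower at day 7, 1.61% and 0.857% at day 8, 2.63% and 1.28% at day 10, 3.47% and 2.35% at day 12, 7.47% and 6.08% at day 13, 8.69% and 4.48% at day 15, and 7.14% and 4.83% at day 17.

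The direction at day 17 depended on scaling, since without it 14 were higher and 18 lower, with the median of all transcripts at -0.23. The splits without scaling were 7 higher and 15 lower at day 13 and 20 higher and 3 lower at day 15. Thus 31.8% of the changed antisense transcripts were higher at day 13, 87.0% at day 15 and 43.8% at day 17 without scaling. Of all changed transcripts without scaling, 72.4% were higher at day 13, 83.4% at day 15 and 25.5% at day 17. Some counts rested on single libraries: day 15 gave 28 without WT replicate 2, 67 without val1 replicate 2 and 22 without val1 replicate 3, and day 17 gave 27 without WT replicate 1. Day 12 gave 15 without the 6 libraries rich in class x reads, day 10 gave 6 without WT replicate 2, and day 8 gave 1 without val1 replicate 1 and 5 without the unnumbered WT library.

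Over the 7 ages 198 antisense transcripts differed at no age, 72 at 1, 25 at 2, 9 at 3, 3 at 4 and 2 at 5, and 9 were higher in val1 at one age and lower at another. The same counts were not made over all transcripts, so they show nothing particular to antisense transcripts. The genotype difference changed with age for 49 of 310 (15.8%, interaction test), against 11.9% of all transcripts. This count moved most with the method. It was 12 with voom on the estimated reads (3.87%, against 9.17% of all transcripts) and 21 without scaling (6.77%, against 7.84%). On the second deposited sheet it was 10, where 1458 of all 25255 transcripts tested passed. With the replicate number as a block it was 79 (25.5%, against 23.9%), so its place relative to all transcripts was not stable. With the block 63 differed at day 13 (20.3%, against 21.8% of all transcripts) and 72 at day 15 (23.2%, against 20.6%). The 5 smallest interaction p-values belonged to AT5G27037 N3 and N2, AT3G25830.N2, AT1G64790.N3 and AT5G08460.N3, of which AT3G25830.N2 lost the call with voom (adjusted p = 0.175) and AT1G64790.N3 with voom (0.272) and with a pseudocount of 0.1 (0.123).

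**Figure D4:**
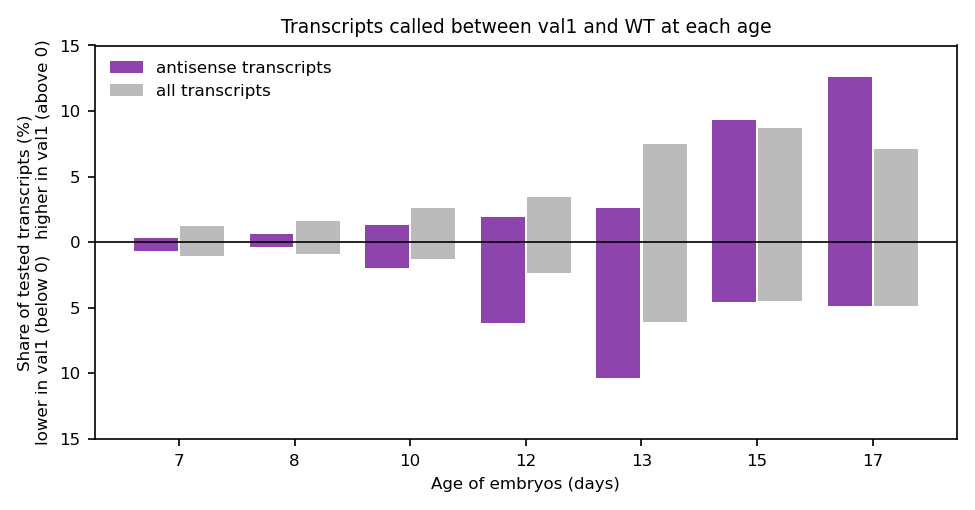
Share of tested transcripts, in percent, past an adjusted p under 0.05 between val1 and WT at each embryo age in days (ages evenly spaced), for antisense transcripts and for all transcripts, with those higher in val1 above 0 and those lower in val1 below 0. Lower antisense transcripts are the larger part at day 13 (10.3% against 2.58% higher) and higher ones at day 17 (12.6% against 4.84% lower).

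Set beside their sense genes, antisense transcripts mostly moved in the same direction. No label states that strand was kept, and reads shared within a pair would by themselves give equal directions, which was not tested. Antisense transcripts of the same gene are set against the same sense sum, so the pairs are not independent. For 289 antisense transcripts the sense gene, summed over its reference-matching and junction-sharing forms, was also tested (of all gene sums 30.8% passed in the average over age, 17.7% higher and 13.1% lower). Between genotypes averaged over age, 45 pairs had both members past the threshold, all 45 in the same direction. The antisense log2 difference was the smaller in 31 of the 45, but the pseudocount shrinks the lower member of a pair, and with voom it was the smaller in 18 of 33. In a further 26 the antisense transcript alone passed and in 54 the sense gene alone. At the single ages 0, 1, 6, 12, 24, 20 and 32 pairs had both past the threshold from day 7 to day 17, and in each the directions were the same. Of all gene sums 3.26%, 3.41%, 5.19%, 7.67%, 16.5%, 16.8% and 14.8% passed at these ages, and 15.7% in the interaction. Between day 12 and day 7 in WT, 153 of 166 such pairs moved the same way and 13 the opposite way, and in val1 145 of 159 and 14. Between day 17 and day 12 the counts were 173 of 183 and 10 in WT and 156 of 171 and 15 in val1.

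**Figure D5:**
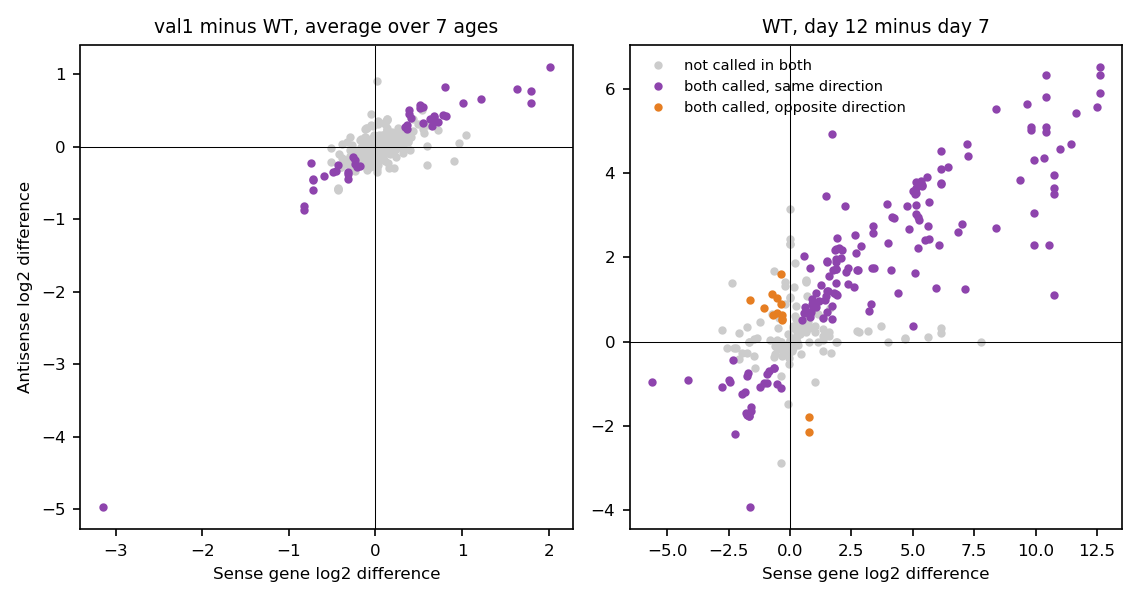
Log2 differences of antisense transcripts (y axis) and of their sense genes (x axis), each point a pair tested on both sides, for val1 minus WT averaged over 7 ages (left) and for WT day 12 minus day 7 (right), coloured by whether both passed the threshold and in which direction. Pairs past the threshold on both sides fall in the quadrants of equal sign in 45 of 45 and 153 of 166 cases. Reads of a gene and of its antisense partner cannot be told apart, and several pairs can share the same gene.

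The pairs that moved in opposite directions are named here after their values were seen. At TGA10 the antisense transcript AT5G06839.N6 fell to 0, 0.0966 and 0.213 scaled FPKM at day 17 in val1, against 3.02, 1.41 and 2.27 at day 12, while in WT it had 0.112 and 0 at day 17 and 0.791, 0.919 and 1.40 at day 12. Its log2 change was -2.15 in val1 and -1.45 in WT, and the sense gene rose by 2.21 in val1 and 2.39 in WT. The sense gene had 24.5 ± 6.35 scaled FPKM at day 17 in val1 (SD, n = 3). The transcript N5 of TGA10 did the same, with -2.58 in val1 and -2.07 in WT.

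At DML2, a DNA glycosylase gene of the DEMETER family that removes methylated cytosine, AT3G10010.N2 had 0.518, 2.82 and 2.23 scaled FPKM at day 17 and 0.196, 0.153 and 0.140 at day 12 in val1, and 3.28 and 3.99 at day 17 and 0.179, 0.185 and 0.166 at day 12 in WT. The antisense transcript rose by 1.66 in val1 and 2.61 in WT, where the sense gene changed by -1.72 in val1 and -2.68 in WT. At AT4G11320, a papain-type protease gene with a close copy next to it (AT4G11310), the antisense transcript N2 was listed at 0 at day 12 in all 6 libraries and at 1.48 to 3.68 scaled FPKM in val1 and 2.49 and 2.77 in WT at day 17. Its sense gene changed by -3.40 in val1 and -6.44 in WT.

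CYP72A15, YSL5 and AT5G17980 also had an antisense transcript opposed to the gene between day 17 and day 12 in both genotypes. Between day 12 and day 7 this held for CCP2, ARL2, HSL2, AGL87, RDH2, AT2G21120 and AT3G02060, and at CCP2 (AT1G77710.N3) the log2 changes were -1.79 in val1 and -2.16 in WT, beside 0.84 in val1 and 0.79 in WT for the gene. The counts of opposed pairs in WT fell to 8 between day 12 and day 7 without WT day 7 replicate 2, and to 6 between day 17 and day 12 without WT day 12 replicate 1. Between genotypes averaged over age 1 opposed pair, at AT4G11320, appeared when any of 7 libraries was left out: val1 day 13 replicate 2, val1 day 15 replicate 2, the val1 library at 3.68 scaled FPKM at day 17, WT day 13 replicate 1 or 3, or WT day 15 replicate 1 or 3.

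Genes known to make, process or silence antisense RNA passed the test between genotypes in 6 cases. Of 37 such genes (RNA polymerases IV and V, Dicer, Argonaute, exosome, exonuclease, and the FLC antisense pathway), 36 were tested and 6 were higher and 0 lower in val1 averaged over age (of all gene sums 17.7% were higher and 13.1% lower), with a median log2 difference of 0.02 beside 0.01 over all genes. They were NRPE1, the largest subunit of RNA polymerase V (0.83, adjusted p = 2.57e-12), NRPD1, that of RNA polymerase IV (0.31), the exosome genes RRP4 (0.27) and RRP41 (0.24), AGO4, an Argonaute of DNA methylation (0.22), and XRN2, a nuclear exonuclease (0.19). With age they moved more: between day 12 and day 7, 7 were higher and 18 lower in val1, and 8 were higher and 20 lower in WT. Between day 17 and day 12, 16 were higher and 9 lower in val1, and 19 were higher and 7 lower in WT. Of all gene sums 73.6% passed between day 12 and day 7 in val1 (32.3% higher and 41.4% lower) and 74.2% in WT (31.8% higher and 42.3% lower). Between day 17 and day 12 the shares were 74.9% in val1 (37.1% higher and 37.9% lower) and 73.5% in WT (37.7% higher and 35.8% lower).

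The authors' deposited table of differential expression holds 67 of the 350 antisense transcripts (19.1%) and 7826 of all transcripts (14.5%). Of these 67, 41 were past the threshold in the average over age here, and 57 in the average or the interaction. For AT1G64790.N3 the authors' deposited table gives log2 differences of -7.52 at day 7 and -6.75 at day 17, and for AT5G45830.N2 it gives 1.15 at day 17. The 40 antisense transcripts below the minimum for testing reached at most 1.77 scaled FPKM, and 27 of them were above 0 in 10 or more libraries.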

How the data were processed

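RNA of val1 and WT embryos at 7 ages was sequenced as 41 libraries. Reads were processed with TopHat2 and StringTie on TAIR10, per the submitters' processing notes; how strand was treated is not given in the sources used here. For every assembled transcript the authors deposited FPKM values, a class code and its length in bases, and they added a second sheet named for counts, and a table of their own comparisons with log2 differences, F statistics (a score) and p-values. The second sheet is not raw counts: 99.9997% of its values above 0 are not whole and 87.8% of the antisense values are 0, so it served only as an alternative. Of the 41 columns, 34 were matched to a numbered sample and 7 to a group alone: the 4 replacement libraries of day 8 and day 12 in both genotypes, called unnumbered, and the 3 val1 libraries of day 17, whose column names without separators also spell a label of another age; 0 columns of sample values were unused.

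From the deposited FPKM values, reads per library were estimated by taking the smallest value above 0 as 4 steps and 12 steps as 1 read; 100% of low values fell on whole steps (tolerance 0.02 steps), and no counting interval is given, since the estimate may be off by a constant. Factors by the trimmed mean of M-values were computed from gene sums (33544 genes, class codes = and j), and differences were tested with limma 3.58.1 in R 4.3.3 on log2(scaled FPKM + 0.5) with 14 group means, 27 residual degrees of freedom and Benjamini-Hochberg adjustment over all 31161 transcripts that reached 1 FPKM in 2 or more libraries (18389 gene sums for the sense genes). Calls have an adjusted p under 0.05. In simulated data on the 31161 transcripts, for val1 minus WT averaged over age, 99% of 100 transcripts changed by a log2 value of 1 and 99% of 100 changed by 2 were recovered. Tables and figures were made with Python 3.11.15, pandas 2.3.3, numpy 2.4.6 and matplotlib 3.10.9.

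The members and gene lists were chosen with earlier results of these data known. The rule for named transcripts takes up to 10 higher and 10 lower by size among the calls of the genotype average, up to 5 each way for each of the 2 intervals between days 7, 12 and 17 in WT, the 8 highest mean FPKM, the 5 smallest interaction p-values, and any on FLC, DOG1, CBF1, MAF4, CDF5, SRO5, P5CDH, VAL1 or a cell type marker; of the list of regulators it takes the 3 largest and 3 smallest calls. Alternatives were other scalings, pseudocounts (0.1 and 1) and filters, voom on the estimated reads, the second sheet, a replicate block and leaving out each library, with one added after seeing the data, the fit without the 6 libraries rich in class x reads.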

Additional observations from a re-analysis of the deposited data

Results flagged for a closer look

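For 18 of the antisense transcripts named above, the difference between val1 and WT itself differed between ages by the interaction test of the limma fit (adjusted p over all transcripts); groups of 3 libraries were too small for a search for outlying libraries. With voom on the estimated reads 5 of the 18 stayed past the threshold (AT5G27037.N2 and N3, AT1G24470.N5, AT2G34700.N2 and AT5G08460.N3), without scaling 9, with a pseudocount of 0.1 13, and with the replicate block 18. The smallest values were at AT5G27037 (4.13e-08 for N3 and 1.36e-07 for N2), where the log2 difference was -0.61 at day 12, -1.50 at day 13, -1.83 at day 15 and -1.69 at day 17 for N2. AT3G25830.N2 of TPS-CIN (8.63e-08) was past the threshold at day 15 (1.74) and day 17 (3.22) only, and its interaction call was lost with voom (adjusted p = 0.175). AT1G64790.N3 of ILA (1.96e-06) was lower at all 7 ages, but val1 was at 0 at day 7, where the fitted -3.06 is set by the pseudocount. Its interaction call was lost with voom (0.272) and with a pseudocount of 0.1 (0.123), and the authors' deposited table gives -7.52 at day 7 and -6.75 at day 17. At AT5G08460 the values were 9.95e-06 for N3 and 0.0314 for N2, and at AT1G24470.N5 of KCR2 1.40e-05.

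AT2G34700.N2 (0.000389) differed by 0.81 at day 13, 1.22 at day 15 and 1.91 at day 17. DOG1 had 0.000628 for AT5G45830.N3, which was lower in val1 at day 13 and higher at day 17, and 0.00426 for AT5G45830.N2. AT1G65890.N3 of AAE12 (0.00535) and AT1G65880.N2 of BZO1 (0.0143) were high in val1 relative to WT at day 15. The EPR1 transcripts AT2G27380.N4 (0.0155), N5 (0.0164) and N3 (0.0266) also changed with age. AT2G29090.N3 of CYP707A2 (0.0259) was past the threshold at day 10 (0.96), day 12 (1.41) and day 13 (0.94). ATCG00280.N2 (0.0396) differed by 2.39 at day 15 and 2.95 at day 17, and AT2G28990.N2 (0.0422) by -1.35 at day 10 and -1.33 at day 12.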

How the results depend on the processing

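On the second deposited sheet far fewer antisense transcripts passed the threshold: 5 in the genotype average, 1, 0, 2, 0, 6, 4 and 9 at days 7 to 17, 10 in the interaction, 12 and 30 in val1 and 15 and 33 in WT for day 12 minus day 7 and day 17 minus day 12, with 1, 3 and 13 pairs in the same direction (average, WT day 12 minus day 7, WT day 17 minus day 12), 1 and 2 opposed pairs in the 2 WT comparisons, and 1 regulator. There AT5G01075.N2 reversed to 0.48 (adjusted p = 0.517) in WT day 17 minus day 12, and 9 of 15 named results lost the threshold. Without scaling the counts were 22 at day 13, 23 at day 15, 32 at day 17, 21 in the interaction, 6 opposed pairs (WT day 17 minus day 12) and 3 regulators. With voom they were 28 at day 15, 34 at day 17 and 12 in the interaction, and AT2G28990.N2 lost the threshold in the average (-0.71, adjusted p = 0.0752). A pseudocount of 0.1 gave 5 at day 8 and 1 opposed pair in the average. The filter of 2 FPKM in 3 libraries gave 4 at day 10 and 6 and 4 opposed pairs in the 2 WT comparisons, and median-of-ratios factors gave 8 opposed pairs in WT day 12 minus day 7. Day 12 gave 15 without the unnumbered libraries and 15 without the 6 libraries rich in class x reads. The causes were not tested.

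The replicate numbers shared by the genotypes were not taken as pairing: same-number correlations of deviations ran from 0.08 to 0.60, with 15 of 16 over 0.1, and 15 of 16 pairs correlated best with their own number, a hint from the data and not the design. With the replicate block the counts were 5 at day 8, 19 at day 10, 63 at day 13, 72 at day 15, 79 in the interaction and 1 opposed pair in the average (AT1G77890.N5); day 17, and day 17 minus day 12 in val1, could not be fitted with it, since the val1 columns of day 17 carry no number here.

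Leaving out 1 library at a time gave 63 to 81 in the average, 2 to 3, 1 to 5, 6 to 9, 18 to 26, 28 to 54, 22 to 67 and 27 to 64 at days 7 to 17, 38 to 61 in the interaction, and 0 to 1, 8 to 11 and 6 to 11 opposed pairs in the average, WT day 12 minus day 7 and WT day 17 minus day 12. Depth limits the low transcripts: the 40 below the minimum were not tested.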

Other observations

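Some further opposed pairs passed the threshold on both sides in val1 and not in WT, where the difference between the genotypes was not tested; they were chosen after their values were seen. GRP7 encodes a clock-controlled RNA-binding protein, and its antisense transcript AT2G21660.N3 had 12.8, 16.7 and 22.0 scaled FPKM at day 12 and 5.13, 2.13 and 7.05 at day 7 in val1, against 10.11, 11.4 and 19.5 at day 12 and 5.95, 4.55 and 3.89 at day 7 in WT. Its log2 change was 1.84 in val1 (adjusted p = 0.0121) and 1.38 in WT (adjusted p = 0.0562, limma), beside sense changes of -2.01 in val1 and -2.36 in WT. The ages do not overlap in either genotype.

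MAF3 is a relative of the flowering repressor FLC. Its antisense transcript AT5G65060.N5 had 3.39, 1.75 and 3.97 scaled FPKM at day 17 and 6.21, 5.94 and 3.12 at day 12 in val1, against 0.547 and 1.48 at day 17 and 3.95, 6.10 and 3.55 at day 12 in WT. It changed by -0.67 in val1 (adjusted p = 0.0271) and -1.77 in WT on the log2 scale, while the sense gene changed by 0.41 in val1 and 0.30 in WT, the last not past the threshold (adjusted p = 0.145). The antisense transcript of the sterol oxidase gene SMO2-1 (AT1G07420.N11) rose by 4.41 in val1 and 4.93 in WT between day 12 and day 7. It then fell by 1.90 in val1 and 3.41 in WT to day 17, with the sense gene at 0.66 in val1 and -0.10 in WT.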
